A study of Ovis aries with 6 samples.

Results

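CD3D, CD3E, CD247 and LCK, genes of the T cell receptor complex and of the kinase that starts its signal, were measured by 7 probes of the 15008 on a 1-colour Agilent sheep array. Within these genes, probes were taken by the sheep RefSeq mRNA accession that the array gives them, whatever their signal. The genes themselves were chosen with earlier results of these arrays known, so counts of their passing probes are a description. CD3D, CD3E and CD247 had 2 probes each and LCK had 1, every probe had 1 spot per array, and all 7 probes passed the filter on dim signals. RNA came from full-thickness body side skin of 12-month-old animals, 3 Aohan fine wool sheep (a breed with fine wool) and 3 small tail Han sheep (a breed with coarse wool), with 1 array per animal. The labels name no experimental treatment. Among the 3 animals of each breed were 1 ram and 2 ewes, not identified by replicate. Within a breed the animals shared their sire, so breed and sire family cannot be told apart. The 3 arrays of each breed were also scanned together, apart from those of the other breed, so breed and scan session cannot be told apart either.

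The T cell receptor recognises antigen through its variable chains but has no signalling tail of its own. It therefore travels with the CD3 chains, among them CD3D and CD3E, and with the zeta chain CD247, whose cytoplasmic tails carry tyrosine motifs. LCK, a SRC family kinase held at the coreceptors CD4 and CD8, phosphorylates these motifs, and the signal passes on to ZAP70, calcium, RAS and NF-kappa B. CD3D and CD3E are defining markers of T cells, whereas CD247 and LCK are also used by natural killer cells. In mammalian skin, T cells lie in the dermis, in the epidermis and around hair follicles. In the sheep reference used for names (ARS-UI_Ramb_v3.0), CD3E and CD3D are direct neighbours, while CD247 and LCK lie on other chromosomes.

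The 6 arrays had between 10774 and 13418 probes well above background, and no spot was saturated. The 75th percentile of the intensity lay between 1747 and 2309 in small tail Han sheep and between 1103 and 2048 in Aohan sheep. Signals are therefore given as log2 of the processed intensity minus the array's own 75th percentile, and changes as Aohan minus small tail Han on that scale. Each change has limma's standard error (SE) and 95% interval. A probe passed at an adjusted p under 0.05 (limma, Benjamini-Hochberg over 12481 tested probes). The follicle and epidermal genes KRT25, KRT27, KRT35 and SFN were well above background on all 6 arrays, and none of the 4 passed the test between the breeds (log2 changes of their brighter probes from -0.10 to 0.08).

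CD3E was about 2-fold higher in Aohan skin at both of its probes, and CD3D was higher at 1 of its 2 probes. CD247 and LCK did not pass at any probe. In all, 3 of the 7 probes passed as higher and 0 as lower (limma, adjusted p). Over all tested probes 15.2% passed, 7.57% as higher and 7.6% as lower. At an unadjusted p under 0.05 the counts were 4 higher and 0 lower, beside 29.4% of all tested probes in either direction. In whole skin, more T cells and more of these mRNAs per T cell cannot be told apart.

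**Figure D1:**
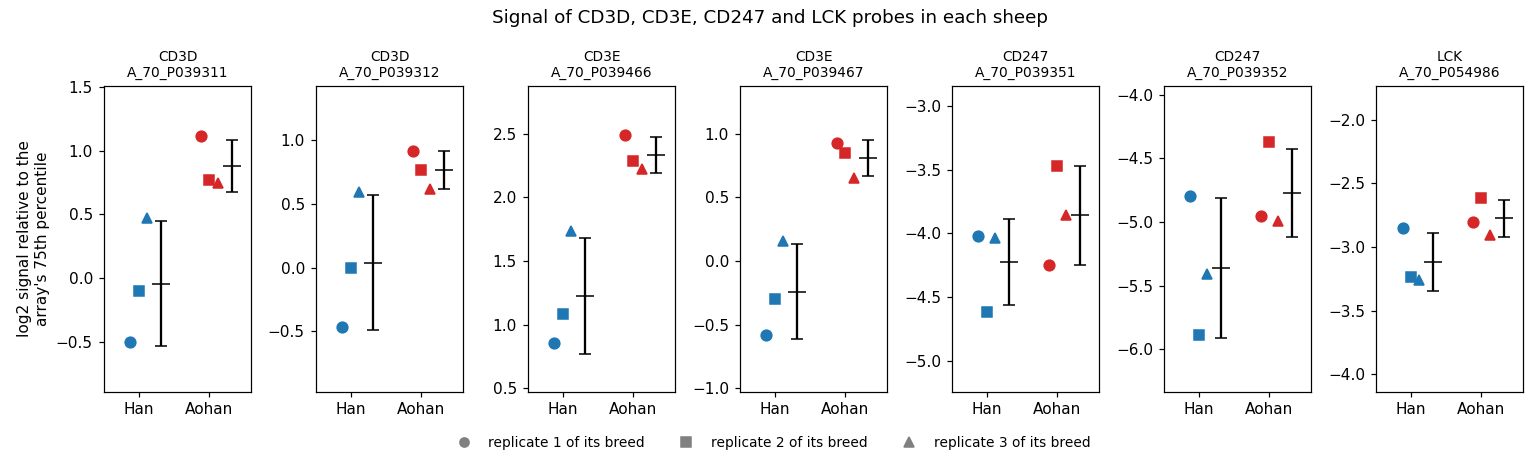
Log2 signal relative to the array's 75th percentile (vertical axes, each spanning the same log2 range but placed at its own level and not starting at 0) in each small tail Han sheep (blue) and Aohan sheep (red) at the 7 probes, with the mean and SD beside the points (n = 3 per breed). All Aohan points lie above all small tail Han points in the 4 panels of CD3D and CD3E, and the breeds overlap in the 3 panels of CD247 and LCK.

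CD3E, the epsilon chain that pairs with CD3D or the gamma chain in the receptor complex, differed most clearly. At probe A_70_P039466 its log2 signal was 0.86, 1.08 and 1.74 in small tail Han replicates 1, 2 and 3, against 2.49, 2.29 and 2.22 in Aohan replicates 1, 2 and 3. The lowest Aohan sheep thus stood 0.49 above the highest small tail Han sheep. The mean was 1.23 ± 0.46 (SD, n = 3) in small tail Han sheep and 2.33 ± 0.14 (SD, n = 3) in Aohan sheep, a log2 change of 1.11 (SE 0.23, 95% interval 0.59 to 1.62, adjusted p = 0.0135), or 2.15-fold. At the other probe, A_70_P039467, the small tail Han signals were -0.58, -0.29 and 0.16 and the Aohan signals 0.93, 0.85 and 0.65. The groups were again apart, also by 0.49 on the log2 scale. The change was 1.05 (SE 0.20, 95% interval 0.59 to 1.51, adjusted p = 0.0104), or 2.07-fold. Of all tested probes, 5.78% had a smaller p than the latter and 6.96% a smaller p than the former. Since the genes were chosen with earlier results of these arrays known, these ranks are a description.

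CD3D, the delta chain, ranked the sheep of each breed as CD3E did, and its estimated changes were smaller, though no test separated the 2 genes. At A_70_P039311 the small tail Han signals were -0.50, -0.10 and 0.47 and the Aohan signals 1.12, 0.77 and 0.75. Here the groups were 0.28 apart, and the change was 0.92 (SE 0.24, 95% interval 0.37 to 1.47, adjusted p = 0.0362), or 1.89-fold. At A_70_P039312 the small tail Han sheep had -0.47, -0.01 and 0.59 and the Aohan sheep 0.92, 0.77 and 0.62. Small tail Han replicate 3 came within 0.02 of the lowest Aohan sheep at this probe, and the change of 0.73 did not pass (SE 0.25, 95% interval 0.16 to 1.30, adjusted p = 0.0880). The CD3D calls changed with the processing in both directions. A_70_P039311 did not pass without limma's intensity trend (adjusted p = 0.0653), with the replicate number as a block (adjusted p = 0.0601) or in 5 of the 6 fits that left out 1 sheep (all but the fit without small tail Han replicate 3). A_70_P039312 passed with the normexp background correction (change 0.71, adjusted p = 0.00681) and without small tail Han replicate 3 (change 1.00, adjusted p = 0.0258).

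At each of these 4 probes all Aohan values lay above all small tail Han values (two-sided exact permutation p = 0.1, which is as low as 3 against 3 can reach). The breeds did not overlap at 34.2% of all tested probes, 17.8% with Aohan higher and 16.4% with Aohan lower. The 4 probes measure 2 neighbouring genes in the same 6 RNA samples, so they are not 4 independent observations.

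CD247, the zeta chain, gave dim signals in both breeds, at 2.12 to 5.01 times the local background, against 25.9 to 157 times for CD3E. At A_70_P039351 the small tail Han log2 signals were -4.02, -4.62 and -4.04 and the Aohan ones -4.25, -3.47 and -3.85. The 2 breeds overlapped, and the change of 0.37 did not pass (SE 0.28, 95% interval -0.27 to 1.01, adjusted p = 0.432). At A_70_P039352 the small tail Han sheep had -4.79, -5.89 and -5.41 and the Aohan sheep -4.96, -4.38 and -4.99. Small tail Han replicate 2 was not well above background here, and the breeds overlapped. This change was 0.59 (SE 0.35, 95% interval -0.21 to 1.39, adjusted p = 0.309). The estimated spot error at the CD247 probes ran from 10.2% to 36.8% of the signal, against 10% at each CD3D and CD3E spot.

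LCK, at A_70_P054986, gave small tail Han log2 signals of -2.85, -3.23 and -3.26 and Aohan signals of -2.80, -2.61 and -2.90. Small tail Han replicate 1 lay above Aohan replicate 3, so the breeds overlapped by a margin of 0.05. The change was 0.34 (SE 0.19, 95% interval -0.10 to 0.78, adjusted p = 0.285). LCK signals were 4.43 to 7.94 times the local background. The interval leaves room for no change as well as for a rise of up to 0.78 on the log2 scale.

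CD3D and CD3E were also set against CD247 and LCK within each array, where no scaling between arrays enters. The difference between CD3E A_70_P039467 and LCK was 2.88 ± 0.58 (SD, n = 3) in small tail Han sheep and 3.59 ± 0.14 (SD, n = 3) in Aohan sheep, a shift of 0.71 with no overlap (two-sided exact permutation p = 0.1, adjusted over 21 pairs of probes p = 0.42). Against CD247 A_70_P039351 the shift of the same CD3E probe was 0.68, and here the breeds overlapped (exact permutation p = 0.2, adjusted p = 0.525). The other CD3E probe, A_70_P039466, shifted by 0.77 against LCK with overlap (exact permutation p = 0.2, adjusted p = 0.525). CD3D A_70_P039312 shifted by 0.14 against CD247 A_70_P039352, also with overlap. Of the 21 pairs 5 did not overlap, and 4 of these 5 were pairs of CD3D and CD3E probes among themselves. The 2 probes of CD3D against each other were among these (shift 0.20). The share without overlap over pairs of other probes was not computed. With 3 against 3 no pair could have passed, so these differences are a description and leave unanswered whether the CD3 chains changed more than CD247 or LCK.

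The sheep within a breed kept 1 order at the 4 CD3D and CD3E probes, while the CD247 and LCK probes had another sheep at the top and did not share a full order among themselves. In small tail Han sheep, replicate 3 was the highest and replicate 1 the lowest at all 4 CD3D and CD3E probes. LCK and both CD247 probes were instead highest in replicate 1. In Aohan sheep the 4 CD3D and CD3E probes were highest in replicate 1, whereas LCK and both CD247 probes were highest in replicate 2. Taken as deviations from the breed means over the 6 arrays, the CD3D and CD3E probes correlated with each other at r = 0.965 to 0.991, and with LCK at r = -0.674 to -0.535. Their correlation with CD247 was -0.453 to -0.007, while CD247 and LCK correlated at 0.532 and 0.90. These are descriptions over 6 arrays, where all probes share the RNA and the scaling of each array, and no test was made of them. Small tail Han replicate 1 and Aohan replicate 2, where CD247 and LCK were highest, were also the arrays of their breed with the most probes well above background (12965 and 13418) and the highest 75th percentile (2309 and 2048). The part of array brightness in this order was not tested.

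**Figure D2:**
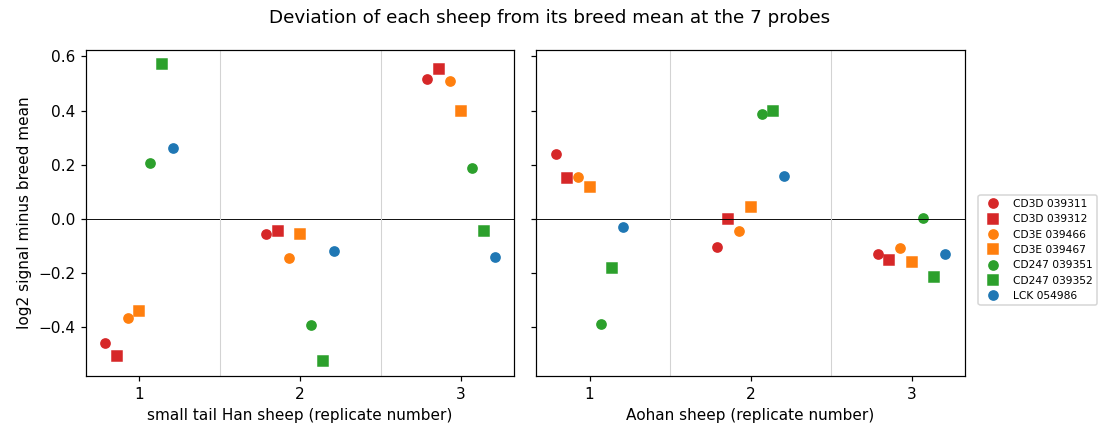
Log2 signal of each sheep minus the mean of its breed (vertical axis) at the 7 probes, by replicate number (horizontal axis; points are spread sideways only for clarity). Red and orange points (CD3D and CD3E) lie together in every sheep, from -0.51 to 0.55, while green and blue points (CD247 and LCK) are highest in small tail Han replicate 1 and Aohan replicate 2.

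By the likeness of their log2 signals over the 6 arrays, among 365 other named genes well above background on all arrays, CD3D and CD3E ranked near the top for each other, from first to sixth place. For CD3D A_70_P039311 the most alike was CD3E (r = 0.987), then XCL1 (0.977), a chemokine made by activated T cells and natural killer cells, and BGLAP (0.971). For CD3D A_70_P039312 they were XCL1 (0.981), CXCL10 (0.963), a chemokine induced by interferon, and CD3E (0.960). For CD3E A_70_P039466 they were XCL1 (0.988), CD3D (0.987) and LOC443441 (0.985). For CD3E A_70_P039467 they were FAS (0.983), a death receptor found on lymphocytes and many other cells, GGTA1 (0.980) and CCR10 (0.979), a chemokine receptor of skin-homing T cells. XCL1 was thus among the 3 most alike at 3 of the 4 CD3D and CD3E probes. For LCK the nearest were RHOA (0.989), PSMD4 (0.985) and SQSTM1 (0.983), and CD247 A_70_P039351 stood at rank 67 (r = 0.693). CD247 A_70_P039352, left out of these ranks because 1 array was not well above background, had r = 0.934 with LCK. For the CD247 probes they were AKT1 (0.940), PPIE (0.919) and MMP7 (0.898), and ASIP (0.977), CREM (0.968) and MMP7 (0.962). Over 6 arrays with a breed difference, such values are high for many pairs and are given as a description.

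Further genes of T cells and of receptor signalling came from fixed lists of 135 symbols beside the members. Of these, 26 had a probe with a RefSeq name and 20 were tested, each at its brightest probe. Of the 20, 4 (20%) were higher in Aohan skin, 0 were lower and 16 did not pass (limma). Over all tested probes 7.57% passed as higher. The counts at an unadjusted p under 0.05 were 7 higher and 0 lower, beside 29.4% of all tested probes in either direction. The median log2 change was 0.33, against 0.03 over all tested probes. Since the lists were written with earlier results of these arrays known, these counts are a description.

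The coreceptor CD4, on which LCK docks, was well above background on 1 of 6 arrays at 1 of its 2 probes and on none at the other. CD28, the main costimulatory receptor, and ITGAL, the LFA-1 alpha chain, were not well above background on any array, so these genes gave no measured level here. CTLA4, the inhibitory counterpart of CD28, had a change of -0.02 at its brighter probe and 0.74 at the other (adjusted p = 0.963 and 0.199). CD40LG, the helper ligand of activated T cells, was at 0.14, and CD80 and CD86, the ligands of CD28 on antigen-presenting cells, were at -0.05 and 0.30. None of these 4 costimulation genes passed. NCK1, an adaptor that binds CD3E, was at 0.93 with a wide error and did not pass either (SE 0.34, adjusted p = 0.107).

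Downstream of the receptor, NFKBIA, the inhibitor that NF-kappa B itself induces, was higher in Aohan skin, with a change of 0.86 (SE 0.16, adjusted p = 0.00968). Its signal was 0.13 to 0.20 in small tail Han sheep and 0.77 to 1.28 in Aohan sheep, without overlap. The call was lost with normexp (change 0.46, adjusted p = 0.109) and before the surface correction (change 0.46, adjusted p = 0.299). The GTPases RHOA and RAC1 and the kinase AKT1 were at 0.75, -0.11 and 0.13 and did not pass, but RHOA passed with normexp (change 0.80, adjusted p = 0.00670) and without small tail Han replicate 1 (adjusted p = 0.00892). These are genes that nearly all cells use.

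Of 7 T cell cytokine genes tested, IL5, which drives eosinophils, and IL10, which restrains immune responses, were higher in Aohan skin. IL5 was -3.26 to -2.59 in small tail Han sheep and -1.99 to -1.70 in Aohan sheep, a change of 0.99 (SE 0.21, adjusted p = 0.0162), while its other probe was well above background on no array. IL10 was higher at both probes, by 0.79 (adjusted p = 0.0222 and 0.0327). At its brighter probe IL10 lost its call with the replicate block (adjusted p = 0.0637) and on dropping small tail Han replicate 2 (adjusted p = 0.0934) or Aohan replicate 3 (adjusted p = 0.0893). TNF, an inflammatory cytokine of T cells and macrophages, was at 0.54, CSF2, a growth factor for myeloid cells, at 0.69, IL3 at 0.28 and IFNG, the cytokine of type 1 T cells, at -0.42, and none of these 4 passed. IL2, the remaining gene of the 7, was at 0.02 at its tested probe and did not pass (adjusted p = 0.962). The chemokine XCL1 was at 0.46 and 0.64 at its 2 probes and CCR10 at 0.36 and 0.47. None of these 4 probes passed (limma, adjusted p from 0.0747 to 0.268). At all 4 the Aohan values lay above the small tail Han values without overlap, as at 17.8% of all tested probes. IL2RA, the alpha chain of the IL2 receptor, was at -0.08. ITGB2, the beta chain of leukocyte integrins on T cells and myeloid cells alike, was higher at both probes, by 0.95 and 0.70 (adjusted p = 0.0108 and 0.0284), though its brighter probe lost the call on dropping small tail Han replicate 2 (adjusted p = 0.0556).

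**Figure D3:**
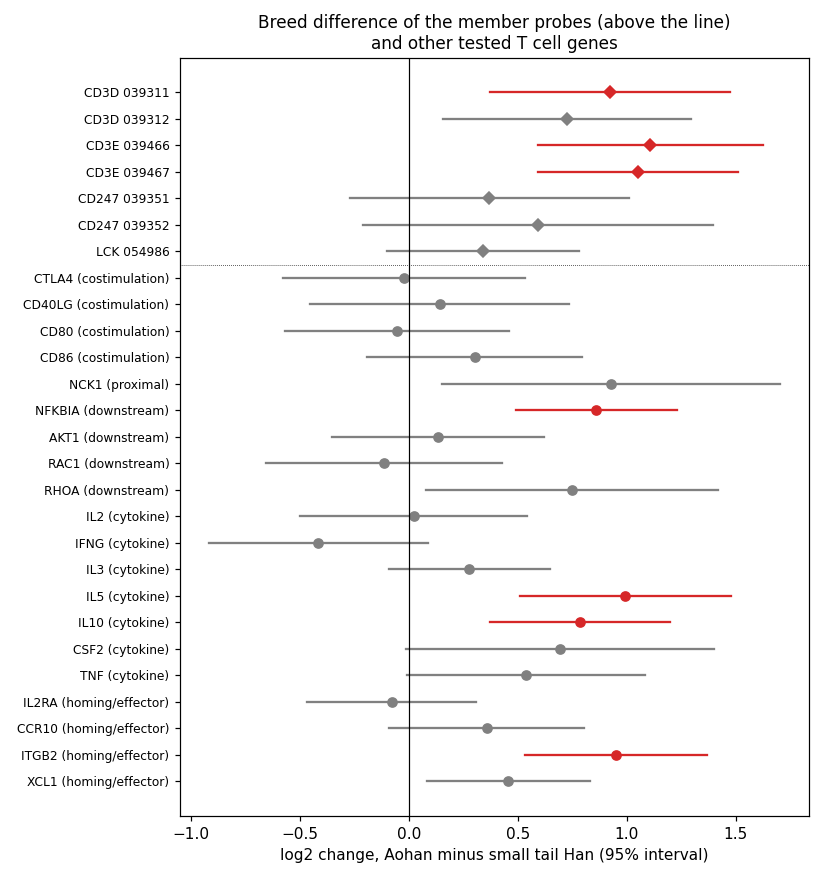
Log2 change between the breeds (horizontal axis, Aohan minus small tail Han) with its 95% interval from limma for the 7 probes of CD3D, CD3E, CD247 and LCK (diamonds, above the dotted line, with the last digits of the probe name). Circles show 20 other tested genes from the lists of T cell and receptor signalling genes, at their brightest probe. Red marks passed as higher at an adjusted p under 0.05, grey ones did not; CD3E lies near 1.1 and most costimulation genes lie near 0.

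Genes of other skin cells were set beside these results. Of 7 myeloid and mast cell genes tested at their brightest probe, 2 were higher (lysozyme LYZ and the mast cell tryptase TPSB2) and 0 lower (limma). Over all tested probes 7.57% passed as higher and 7.6% as lower. The median log2 change of the 7 genes was 0.55, against 0.33 in the 20 listed T cell and signalling genes. Their summed linear signal, in units of the 75th percentile, was 2.2 to 2.99 in small tail Han sheep and 2.8 to 3.27 in Aohan sheep. CD1D, in the same myeloid list, passed as lower at its dimmer probe (change -1.36, adjusted p = 0.00138) and missed at the brighter one (-0.84, adjusted p = 0.0502). None of 3 endothelial, 3 fibroblast and 4 keratinocyte genes passed. Their summed signals were 0.234 to 0.282, 141 to 212 and 723 to 994 in small tail Han sheep and 0.202 to 0.205, 116 to 203 and 606 to 1110 in Aohan sheep. Aohan values lay below small tail Han values without overlap at both probes of endothelial SELP (-0.35 and -0.57). The same held at the tested probe of SELE (-0.39) and the brighter probe of the fibroblast list's MMP2 (-0.18). This was so at 16.4% of all tested probes. Of the red cell list HBB was tested, with a change of -0.83 (limma, adjusted p = 0.171). The lists of natural killer and B cell markers had no probe with a RefSeq name. GNLY, an effector gene of T and natural killer cells that was added once the named genes of the array were known, was at -0.07 and -0.11 at its 2 probes and did not pass. Of the other genes added in that way, SLAMF1, a lymphocyte surface receptor, was at 0.38 and did not pass, and IL7, a growth factor of T cells made by other cells, was at 2.27 (SE 0.63, adjusted p = 0.0439) but well above background in only 1 small tail Han and 2 Aohan sheep. RHOH and IL15 were too dim to test. The part of other cell types in the CD3D and CD3E difference was not tested.

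A receptor chain itself may also have been on the array, though without a RefSeq name. The study's annotation describes A_70_P017001 as a rearranged T cell receptor gamma chain, while the scanner files give it another identifier, an expressed sequence tag, so its identity is uncertain. The small tail Han log2 signals were -4.12, -4.70 and -4.27 and the Aohan ones -2.94, -2.57 and -2.98. The Aohan sheep were all above the small tail Han sheep, with means 1.53 apart on the log2 scale. This annotation was given only for probes that the study had called on these same arrays, so the difference is a description and adds no test.

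The CD3E call changed with the surface correction at 1 probe and not at the other. Before the scanner software's surface correction, CD3E A_70_P039466 had a change of 0.85 and did not pass (adjusted p = 0.0692). That correction multiplied its signal by 1.26 to 1.29 on the Aohan arrays, by 1.17 on small tail Han replicate 1 and by 1 on the other two small tail Han arrays. At A_70_P039467 the correction lowered the Aohan signals, with factors of 0.888 to 0.908, and without it the change was 1.19 (adjusted p = 0.00809). A_70_P039467 passed in each of the 6 fits that left out 1 sheep (changes 0.88 to 1.25, adjusted p up to 0.0498). A_70_P039466 passed in 5 of 6 and did not pass once small tail Han replicate 2 was dropped (change 1.03, adjusted p = 0.0633). For CD3D A_70_P039311 the changes over these 6 fits ran from 0.69 to 1.18 (adjusted p from 0.0139 to 0.118). The unscaled intensities of the breeds overlapped at every member probe, for example 1498 to 1951 in small tail Han and 1775 to 3700 in Aohan sheep at CD3E A_70_P039467, and the separation appeared once each array was set against its own 75th percentile.

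**Figure D4:**
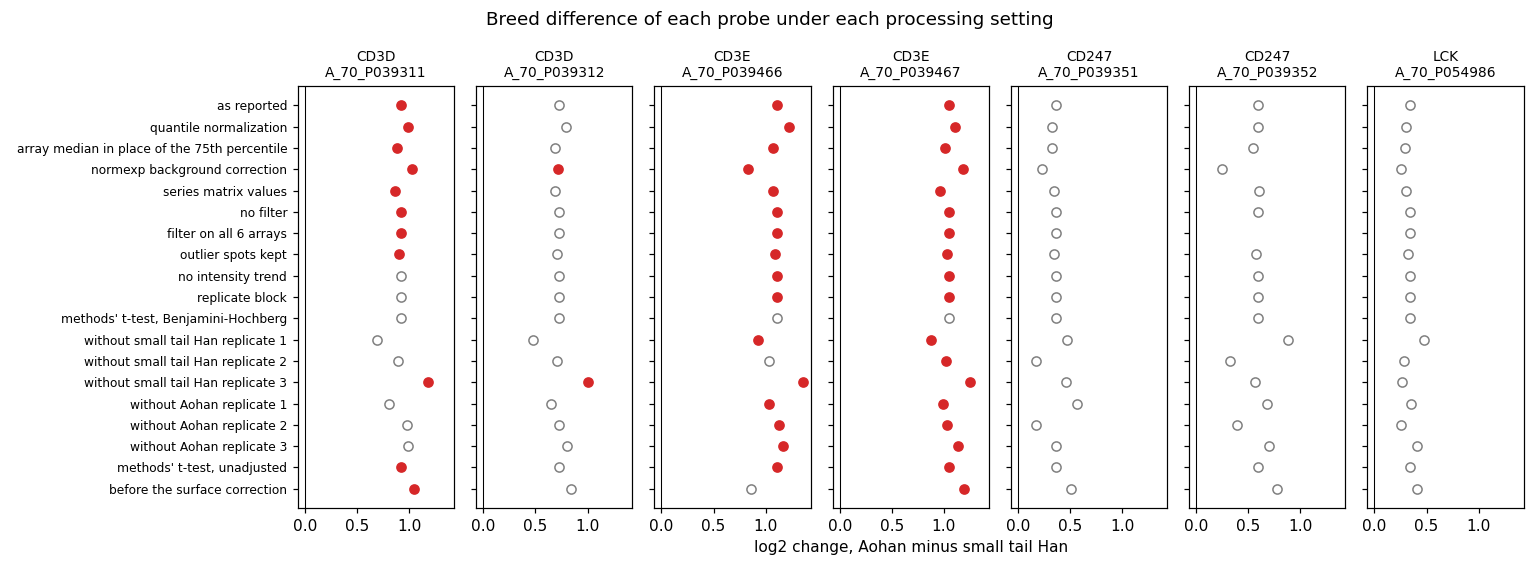
Log2 change between the breeds (horizontal axes, the same in each panel) at the 7 probes under each way of processing the data (rows). Filled red points passed at the threshold of that row and open points did not; every change is above 0, CD3E A_70_P039467 passed in all rows but that of the methods' test with adjustment, and CD247 and LCK passed in none.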

How the data were processed

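Expression was measured in skin of 6 sheep, 3 per breed, with 1-colour Cy3 arrays. The authors deposited scanner intensities from Agilent's software (Feature Extraction, version 10.5.1.1 in the labels and headers, another version in the study's methods), as background-subtracted signals with a multiplicative surface correction on 4 of the 6 arrays. The corrected arrays were all 3 of Aohan sheep and small tail Han replicate 1, so this step was not balanced between the breeds. A deposited value table gives log2 expression. How it was normalized is not given in the sources used here. Its 6 columns share a median of 8.31 and an upper quartile of 11.00, and it served as an alternative.

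Controls and outlier-marked spots were removed (none at the 7 probes), log2 of the processed intensity was averaged per probe, and each array's 75th percentile was subtracted. A probe needed a signal well above background on 3 or more of the 6 arrays, and 2 or more values in each breed, to be tested with limma 3.58.1 in R 4.3.3 (empirical Bayes with intensity trend, two-sided) and Benjamini-Hochberg adjustment at 0.05. The script was tested on simulated data. The methods name Student's test, which was run as an alternative ("the methods' t-test"). Each sheep has 1 array, so p-values measure the spread between animals that share a sire, and the number of arrays limits the precision.

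Names come from RefSeq accessions found in assembly ARS-UI_Ramb_v3.0, for 734 of 758 probes with such an accession. No genome build is given for the array, so no coordinates are printed, and probe positions within transcripts were not used here. The members and lists were chosen with earlier results of these data known. Named are all probes of the 4 genes, every listed T cell gene that passed and beside these up to 4 of smallest p per list, and per member probe the 3 most alike genes. No probe description was used to find receptor chains, because the scanner files carry none; A_70_P017001 was added after its values were seen, and a few other genes with listed values fall outside the rule. Plots used matplotlib 3.10.9 (Python 3.11.15).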

Additional observations from a re-analysis of the deposited data

How the results depend on the processing

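The 7 probes kept a change above 0 under every alternative run (the alternatives tested other scaling, background correction, the series matrix values, filters, outlier spots, the intensity trend, the replicate block, the methods' t-test, the surface correction and leaving out each sheep). Each of these alternatives used scaled or normalized arrays. Without scaling, the log2 difference was -0.14 at CD247 A_70_P039351 and -0.17 at LCK, and 0.08 to 0.59 at the other probes. CD247 and LCK passed under none of them, and CD247 A_70_P039352 could not be tested with the filter on all 6 arrays. CD3D A_70_P039312 passed with normexp (0.71), and CD3D A_70_P039311 did not without the intensity trend (0.92). With the methods' t-test and Benjamini-Hochberg adjustment, CD3D A_70_P039311, CD3E A_70_P039466 and CD3E A_70_P039467 (changes 0.92, 1.11 and 1.05) did not pass (adjusted p = 0.171, 0.107 and 0.0898 from this test), although each had an unadjusted p under 0.05. Before the surface correction, an alternative chosen after seeing the data, CD3E A_70_P039466 (0.85) did not pass. Leaving out 1 sheep gave 0.69 to 1.18 for CD3D A_70_P039311, 0.47 to 1.00 for A_70_P039312, 0.92 to 1.36 for CD3E A_70_P039466 and 0.88 to 1.25 for A_70_P039467.

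The deviations of same-numbered sheep of the breeds correlated at -0.224, -0.369 and 0.278, and those of unlike-numbered sheep at -0.303 to 0.47. With 3 arrays per breed these values cannot decide whether the numbers pair the sheep. With the replicate block 1197 probes passed in place of 1893, and CD3D A_70_P039311 did not (change 0.92, adjusted p = 0.0601), with no other call of the 7 changed. The number of probes that passed was 712 with the adjusted t-test, 3234 with the unadjusted one, and 788 to 2248 when 1 sheep was left out, falling to 788 on dropping small tail Han replicate 2, to 943 on dropping small tail Han replicate 3 and to 1058 on dropping Aohan replicate 3. Of the 20 further listed genes of T cells and receptor signalling, NFKBIA, IL5, IL10 and ITGB2 were the 4 higher with each other scaling, the series matrix values and no filter. With normexp, RHOA took the place of NFKBIA. In settings added for this list after seeing the data, 3 were higher with the replicate block (IL10 lost), 3 before the surface correction (NFKBIA lost), 2 to 6 when 1 sheep was left out (2 without small tail Han replicate 2, where IL10 and ITGB2 were lost, 3 without Aohan replicate 3, 5 without small tail Han replicate 3 with TNF added, and 6 without small tail Han replicate 1 with NCK1 and RHOA added), and 0 with the adjusted t-test, against 5 with the unadjusted one. Signals of CD247 close to background limit what can be said of it.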
